A study of Mus musculus with 7 samples.

Results

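The *Zfp* genes are mouse genes named for the zinc fingers of their proteins. Of 351 *Zfp* symbols with a 2- or 3-digit number among the 23347 genes in the table, 161 had raw counts averaging 200 or more over all 7 livers and are described here. Liver RNA came from male mice on a C57BL/6 background, aged 6 to 8 weeks when they were placed on the CDAHFD, a choline-deficient, amino acid-defined high-fat diet that brings on steatohepatitis, and kept on it for 15 weeks. Of these, 4 were *B4galt1* flox/flox littermates, which carry *B4galt1* flanked by recombination sites and no Cre and which the labels call WT. The other 3 were labelled *B4galt1* hep-/-, which also carry *Alb-Cre*, a Cre recombinase driven by the albumin promoter that directs deletion to hepatocytes, and each mouse gave 1 library. *B4galt1* encodes a Golgi galactosyltransferase that adds galactose to N-glycans. Chow-fed livers were not analysed here.

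Most *Zfp* genes encode proteins with C2H2 zinc fingers, short loops in which a pair of cysteines and a pair of histidines hold a zinc ion and a helix reads a few bases of DNA. Many carry a KRAB domain, which recruits TRIM28 and, through it, the methyltransferase SETDB1 and heterochromatin proteins to silence transposable elements and nearby genes. Other members bind RNA, act as ubiquitin or SUMO ligases, or regulate promoters without KRAB.

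Libraries held 37838654 to 39668509 counts in flox/flox mice and 30608271 to 34586588 in mice labelled hep-/-. *B4galt1* was at 48.7 to 53.0 CPM (counts scaled to the size of the library) in flox/flox mice and at 28.4, 23.9 and 53.7 CPM in replicates 1 to 3 labelled hep-/-. The library labelled hep-/- replicate 3 therefore lay above every flox/flox library for the targeted gene, against its label, and key counts below are also given without it. The log2 fold change of *B4galt1* was -0.52 ± 0.26 (SE, edgeR quasi-likelihood test with Benjamini-Hochberg adjustment, adjusted p = 0.181). Mitochondrially encoded genes took 3.88% to 8.00% of counts in flox/flox mice and 14.4% to 22.6% in mice labelled hep-/-.

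Transcription start regions are shown for the called members that matched an entry and had the lowest adjusted p among the 10 largest increases, *Zfp451*, *Zfp948* and *Zfp653*, and for *Zfp207*, which was among the most abundant members and was not called. Each is the 250 bases before the start in RefSeq GRCm38.p6, written 5′ to 3′ on the gene's strand: chr1:33814596-33814845 (minus strand), chr17:21566728-21566977 (plus), chr9:22071377-22071626 (minus) and chr11:80383029-80383278 (plus). Capitals mark matches on either strand to 7 motifs searched: the letters GGGCGG for Sp1, the letters CCGGAAG for ETS factors, the letters AAGATGGC for YY1, the letters ACTACAA for ZNF143, the letters GCGCATGC for NRF1, the letters CCAAT for NF-Y and the letters TATAAA of the TATA box.
Zfp451: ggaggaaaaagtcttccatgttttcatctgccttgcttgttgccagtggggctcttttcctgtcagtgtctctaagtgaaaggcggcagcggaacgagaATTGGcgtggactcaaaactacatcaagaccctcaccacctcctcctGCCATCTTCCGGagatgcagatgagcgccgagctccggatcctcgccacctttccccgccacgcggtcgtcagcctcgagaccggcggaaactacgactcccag
Zfp948: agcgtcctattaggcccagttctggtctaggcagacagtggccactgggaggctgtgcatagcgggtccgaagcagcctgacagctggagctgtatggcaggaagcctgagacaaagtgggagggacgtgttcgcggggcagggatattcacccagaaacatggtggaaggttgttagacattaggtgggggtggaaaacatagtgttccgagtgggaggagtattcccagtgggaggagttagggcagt
Zfp653: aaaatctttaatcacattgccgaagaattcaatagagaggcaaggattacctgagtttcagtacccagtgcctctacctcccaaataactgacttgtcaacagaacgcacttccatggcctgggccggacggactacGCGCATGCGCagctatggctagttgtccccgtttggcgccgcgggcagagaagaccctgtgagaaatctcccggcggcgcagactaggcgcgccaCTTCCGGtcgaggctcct
Zfp207: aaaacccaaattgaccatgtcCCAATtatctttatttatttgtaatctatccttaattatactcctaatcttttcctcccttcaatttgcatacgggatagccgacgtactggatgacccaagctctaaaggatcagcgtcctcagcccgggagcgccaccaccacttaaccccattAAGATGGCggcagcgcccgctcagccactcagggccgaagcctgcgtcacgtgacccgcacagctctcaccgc

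The *Zfp451* window held 1 match each to the YY1, ETS and NF-Y letters, the first overlapping the second. *Zfp653* held 1 ETS match and 2 NRF1 matches that overlap each other, *Zfp207* held 1 YY1 and 1 NF-Y match, and *Zfp948* held none. Over the window that also includes the first 50 transcribed bases, 131 of the 161 members had an entry. The CCAAT letters were found in 51.9% of these against 42.4% of the promoters of genes tested and 41.1% of all 27025 promoters. They were found in 33.3% of the 30 called members and 57.4% of the 101 not called. GGGCGG was found in 61.1% of members and 63.2% of genes tested, and CCGGAAG in 24.4% and 18.0%. For the remaining 4 motifs the share was 6.11% to 6.87% in members and 4.70% to 9.80% in genes tested. A match describes letters, not binding, and these shares were not tested.

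The well-expressed *Zfp* genes were shifted upward in livers labelled hep-/-. Of the 161 members, all of which were tested, 36 (22.4%) were called higher and 0 were called lower, where a call needed an adjusted p under 0.05 and a log2 fold change beyond 0.58 in size. Over all 15179 genes tested, 8.00% were called higher and 7.83% lower. The genes tested include some with lower mean counts than any member and were not matched to the members for count level. In 3 bins of members by rising mean count, 5.66%, 31.5% and 29.6% were called higher. The part of count level in the share of 22.4% was not tested. The log2 fold change was above 0 for 129 members (80.1%, against 51.3% of genes tested). Its median over the members was 0.34, with quartiles of 0.09 and 0.74, and over all genes tested it was 0.02. Without the condition on fold change the same count of 36 members passed, against 8.06% of genes tested. At an unadjusted p under 0.05, 64 members were higher and 2 were lower, against 16.8% and 16.1% of genes tested. DESeq2 called 44 members (27.3%) higher and 0 lower. Its share over all genes was 7.40%, out of 22960 genes, a wider set that took in genes which the edgeR filter left out. Every mouse labelled hep-/- was above every flox/flox mouse for 53 members and below for 1, shares that were 13.6% and 15.0% over all genes.

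**Figure D1:**
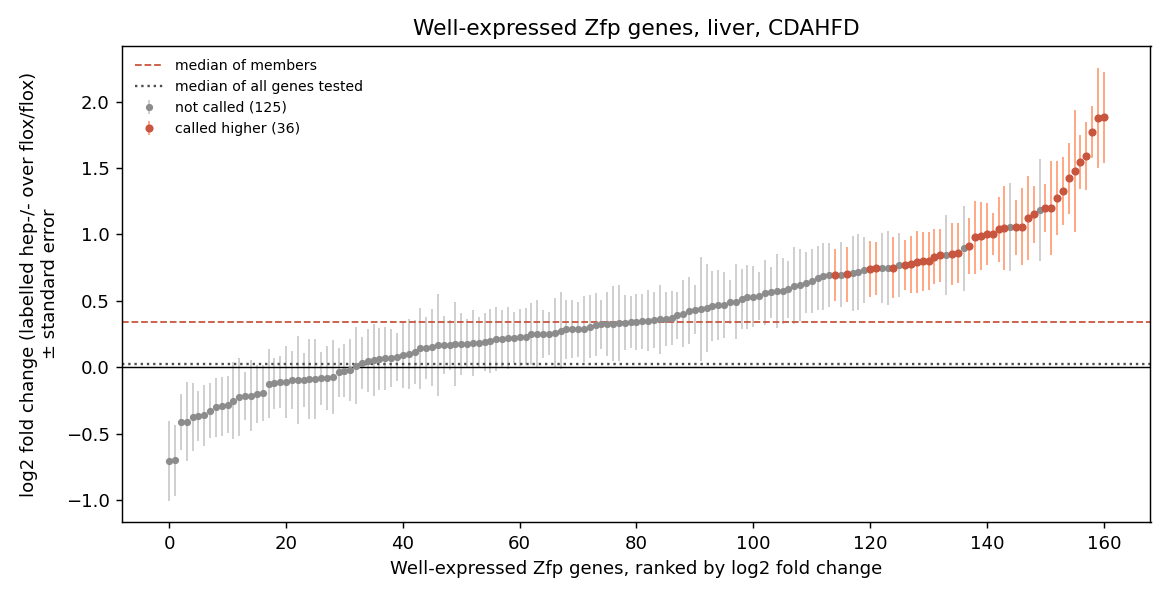
Log2 fold change between mice labelled *B4galt1* hep-/- (n = 3) and flox/flox mice (n = 4), with its standard error, for each of the 161 members in rank order. The 36 called members are in red, the dashed line marks the member median of 0.34 and the dotted line the median of all genes tested, 0.02.

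The direction of the median held under each scaling of the counts. The number called higher was 38 with RLE and 37 with upper-quartile scaling, against 8.19% and 8.29% of all genes. It was lower with total counts alone and when some of the mice were left out. With libraries scaled by total counts alone, the median of all genes moved to -0.10, that of the members was 0.23, and 15 members were called higher against 4.28% of genes. Without the library labelled hep-/- replicate 3, 19 members were called higher, 17 of them among the 36, which is 11.8% of members against 6.28% of all genes in that fit, and the median was 0.34. The number called was 12 without flox/flox replicate 2, 17 without flox/flox replicate 3, 19 without flox/flox replicate 4 and 16 without hep-/- replicate 2. In those 4 fits the share called higher over all genes was 2.74%, 4.65%, 4.98% and 3.92%. The genes called in each of the 7 fits that left out 1 mouse numbered 11, namely *Zfp12*, *Zfp276*, *Zfp410*, *Zfp451*, *Zfp612*, *Zfp653*, *Zfp692*, *Zfp715*, *Zfp948*, *Zfp950* and *Zfp970*.

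The 3 largest increases were in genes in which no KRAB-A pattern was found. *Zfp653*, on chromosome 9, was at 10.4, 5.50, 3.58 and 7.15 CPM in flox/flox replicates 1 to 4 and at 18.5, 35.4 and 19.7 CPM in replicates 1 to 3 labelled hep-/-. The groups did not overlap, and the log2 fold change was 1.88 ± 0.34 (SE, edgeR adjusted p = 0.00735). *Zfp692*, whose human counterpart is a phosphorylation target of the energy sensor AMPK, was at 7.57, 3.89, 2.46 and 3.96 CPM in flox/flox mice and at 12.2, 25.2 and 11.9 CPM in the others. It rose by a log2 fold change of 1.88 ± 0.38 (edgeR adjusted p = 0.0103), also without overlap.

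*Zfp276* varied least within groups of these 3. It was at 23.2, 15.5, 15.7 and 19.0 CPM in flox/flox mice and at 55.6, 65.0 and 67.4 CPM in mice labelled hep-/-. Its log2 fold change of 1.77 ± 0.19 had the lowest adjusted p of all members (edgeR, 0.00159). *Zfp276* shares 17.1% of its transcript with *Fanca*, a DNA repair gene, and whether the counting used strand is not given in the sources used here. *Fanca* itself was at a mean of 1.13 CPM in flox/flox mice and 1.83 CPM in mice labelled hep-/-, with a log2 fold change of 0.69 that was not called (edgeR adjusted p = 0.299). *Zfp451*, a SUMO ligase, was at 11.7, 10.4, 8.27 and 9.78 CPM in flox/flox mice and at 25.2, 36 and 26.6 CPM in mice labelled hep-/-. The groups lay far apart, with a log2 fold change of 1.55 ± 0.20 (edgeR adjusted p = 0.00257).

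*Zfp579* and *Zfp839* were less certain. *Zfp579* was at 14.3, 7.60, 2.86 and 8.33 CPM in flox/flox mice and at 15.6, 38.3 and 15.3 CPM in mice labelled hep-/-, so that the groups nearly met (log2 fold change 1.48 ± 0.46, edgeR adjusted p = 0.0479). *Zfp839* was at 12.3, 5.42, 4.52 and 7.04 CPM in flox/flox mice and at 10.3, 18.5 and 21.8 CPM in mice labelled hep-/-, and the groups overlapped (1.2 ± 0.35, edgeR adjusted p = 0.0402). Neither was called without the library labelled hep-/- replicate 3. Overlap between the groups was also seen for the called genes *Zfp408*, *Zfp335* and *Zfp142*.

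KRAB genes were among the largest increases as well. *Zfp948* was at 4.69, 7.03, 4.62 and 7.66 CPM in flox/flox mice and at 21.2, 19.3 and 13.5 CPM in mice labelled hep-/- (log2 fold change 1.59 ± 0.26, edgeR adjusted p = 0.00470). *Zfp612* was at 14.0, 15.4, 7.54 and 17.3 CPM in flox/flox mice and at 32.2, 45.9 and 30.9 CPM in mice labelled hep-/- (1.42 ± 0.27, edgeR adjusted p = 0.00816). In both genes every mouse labelled hep-/- was above every flox/flox mouse. *Zfp950* was at 40.8, 27.9, 22.5 and 35 CPM in flox/flox mice and at 65.5, 109 and 62.2 CPM in mice labelled hep-/- (1.33 ± 0.26, edgeR adjusted p = 0.00890). *Zfp182*, on the X chromosome, was at 13.1, 9.89, 6.70 and 12 CPM in flox/flox mice and at 20.8, 35.8 and 18.9 CPM in mice labelled hep-/- (1.27 ± 0.28, edgeR adjusted p = 0.0140). Neither gene overlapped between the groups, and in both the highest value was that of replicate 2 labelled hep-/-.

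**Figure D2:**
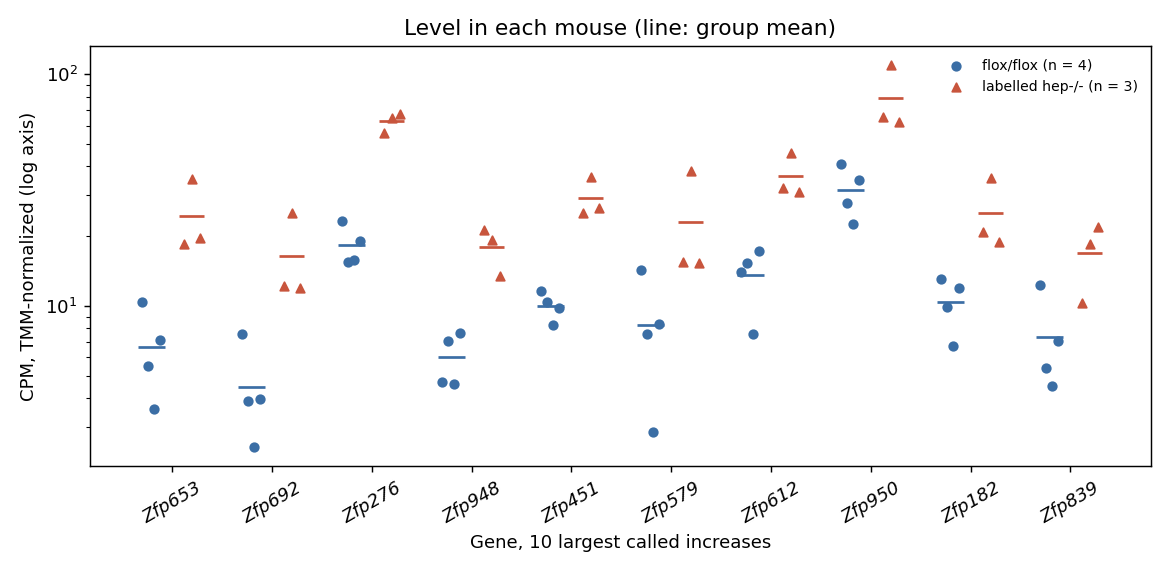
CPM on a log axis in each of 4 flox/flox mice (circles) and 3 mice labelled hep-/- (triangles) for the 10 called members with the largest increase, with a line at each group mean. The groups are apart for every gene but *Zfp839*.

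The other 26 called members had log2 fold changes of 0.69 to 1.2. *Zfp410*, an activator of the chromatin remodeller gene *Chd4*, rose from a mean of 17.9 CPM to 36 CPM (log2 fold change 1.0 ± 0.16, edgeR adjusted p = 0.00461). *Chd4* itself was at 110 CPM and 135 CPM and was not called (log2 fold change 0.29 ± 0.19, edgeR adjusted p = 0.311). At the lower end stood *Zfp507*, at 0.69, and *Zfp160*, at 0.70. Some called genes carry sequence that other genes share: *Zfp335* with *Pcif1*, *Zfp142* with *Plcd4*, and *Zfp653*, *Zfp384* and *Zfp507* with predicted genes. Of 31 members that share 10% or more of their transcript with another gene, 7 (22.6%) were called, against 29 (22.3%) of the other 130 and 8.00% of all genes tested.

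Of the most abundant members only *Zfp970* was called. By mean CPM the 5 highest were *Zfp36*, *Zfp706*, *Zfp970*, *Zfp91* and *Zfp207*. On the FPKM scale, which divides counts by gene length and library size, *Zfp36* averaged 46.6 in flox/flox mice and 58.8 in mice labelled hep-/-, and *Zfp207* averaged 31.6 and 28.1. *Zfp970*, a KRAB gene on chromosome 2, was at 52.2, 56.9, 57.2 and 59.6 CPM in flox/flox mice and at 88.0, 128 and 160 CPM in mice labelled hep-/-. It rose by a log2 fold change of 1.15 ± 0.21 (edgeR adjusted p = 0.00758), with no overlap. It shares 57.2% of its transcript with *Zfp965* and a predicted gene, so reads may have been divided among these copies.

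*Zfp36* encodes tristetraprolin, which binds AU-rich elements and promotes the decay of cytokine mRNAs. It was at 115, 51.1, 63.1 and 88.9 CPM in flox/flox mice and at 94.1, 123 and 111 CPM in mice labelled hep-/-. The groups overlapped, and the log2 fold change of 0.46 ± 0.26 was not called (edgeR adjusted p = 0.247). *Zfp207*, a kinetochore and spindle protein, was at 60.2, 77.4, 79.4 and 71.3 CPM against 74.9, 59.7 and 76.1 CPM (-0.04 ± 0.18, edgeR adjusted p = 0.909). *Zfp91*, a ubiquitin ligase, had a log2 fold change of -0.11 ± 0.20 and *Zfp706* one of -0.29 ± 0.22 (edgeR adjusted p = 0.719 and 0.385). For all 4 genes the groups overlapped.

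Of 4 further members named by rule, *Zfp143*, *Zfp148*, *Zfp281* and *Zfp638*, none was called. *Zfp143*, a promoter activator, was at 5.07 to 8.05 CPM in flox/flox mice and at 6.76 to 8.7 CPM in mice labelled hep-/- (log2 fold change 0.29 ± 0.25, edgeR adjusted p = 0.451). *Zfp148* and *Zfp281*, which bind GC-rich promoters, had log2 fold changes of -0.19 ± 0.21 and 0.07 ± 0.22 (edgeR adjusted p = 0.555 and 0.847), and the sign of *Zfp281* turned with total-count scaling. *Zfp638*, known from fat cell differentiation, was at 27.4 to 42.2 CPM in flox/flox mice and at 41.1 to 48.3 CPM in mice labelled hep-/- (0.43 ± 0.19, edgeR adjusted p = 0.131). The groups of all 4 genes overlapped. Of 44 listed *Zfp* transcription and chromatin factors without KRAB, 43 were found in the table and 33 were members. Of the 43, 12 (27.9%) were called higher, not all of them members, and 1, *Zfp652* (not a member), lower. The shares over all genes tested were 8.00% and 7.83%. Of 11 members that act on RNA or the ribosome, 1 (9.09%, near the share over all genes) was called, *Zfp830* (0.74 ± 0.21, edgeR adjusted p = 0.0374). *Zfp598*, the ligase that marks collided ribosomes, had a log2 fold change of 0.65 ± 0.24 (edgeR adjusted p = 0.0864).

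The lowest log2 fold changes among members were those of *Zfp664* and *Zfp277*. *Zfp664* was at 22.2, 25.2, 43.2 and 15.5 CPM in flox/flox mice and at 15.4, 14.6 and 18.9 CPM in mice labelled hep-/- (-0.70 ± 0.30, edgeR adjusted p = 0.127). *Zfp277* was at 7.86, 11.3, 14.7 and 10.4 CPM against 8.54, 6.67 and 5.20 CPM (-0.70 ± 0.27, edgeR adjusted p = 0.0943). Both overlapped between the groups and were named after their values were seen. *Zfp110* was the 1 member for which every mouse labelled hep-/- was below every flox/flox mouse (-0.37, edgeR adjusted p = 0.197).

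Within the members, the increase was described by protein features read from GENCODE reading frames, with no test. A KRAB-A pattern was found in 65 members, of which 11 (16.9%) were called, and not in 96, of which 25 (26.0%) were called. The medians were 0.36 and 0.34, and 8.00% of all genes tested were called higher. The groups were apart, with mice labelled hep-/- higher, for 23 of the 65 and 30 of the 96, against 13.6% of all genes. The pattern is a fixed run of letters, so a member without it may still encode a KRAB domain. The median log2 fold change was 0.18 in 41 members with 0 to 5 finger patterns, 0.33 in 65 members with 6 to 11 and 0.54 in 55 members with 12 or more, while the called shares were 22%, 16.9% and 29.1%. Spearman's rho between finger number and log2 fold change was 0.28 across the 161 genes, which share libraries and are not independent. Of 67 members with another *Zfp* gene next to them in the order of RefSeq protein-coding genes, 6 (8.96%, close to the share over all genes) were called. Of 94 without one, 30 (31.9%) were called, and the medians were 0.32 and 0.46. The other measures differed less. All mice labelled hep-/- were above all flox/flox mice for 21 of the 67 and 32 of the 94, where the share over all genes was 13.6%. The log2 fold change was above 0 for 57 and 72, against 51.3% of genes tested. Members with neighbours also had fewer counts, with a median of the mean raw count of 365 against 534, and 3 of the 53 members with the lowest counts were called. Members divided into 3 bins of rising GC content had called shares of 17.0%, 20.4% and 29.6% and medians of 0.40, 0.28 and 0.40, and rho between GC content and log2 fold change was 0.03.

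**Figure D3:**
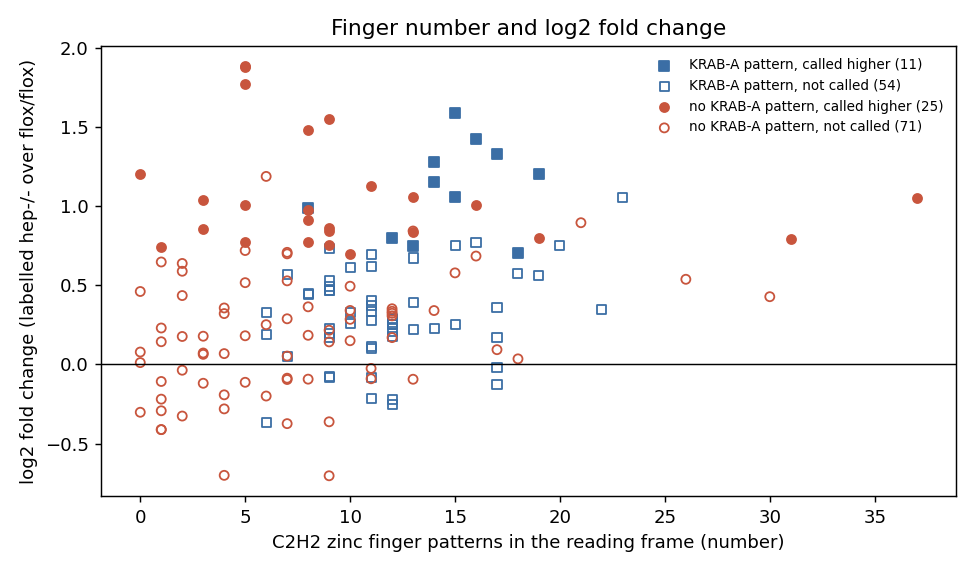
Number of C2H2 finger patterns (x axis) and log2 fold change (y axis) of the 161 members, with squares for a KRAB-A pattern, circles for none and filled symbols for called genes. Members with 12 or more fingers had a median of 0.54, and those with 0 to 5 a median of 0.18.

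Each mouse was also placed by the median deviation of its members from the flox/flox mean. For all members this was 0.06, 0.01, -0.09 and 0.06 on the log2 scale in flox/flox replicates 1 to 4 and 0.28, 0.49 and 0.37 in replicates 1 to 3 labelled hep-/-. For the 36 called members, which were chosen by the difference between groups, it was 0.29, 0.01, -0.22 and 0.04 against 0.64, 1.24 and 1.05. Replicate 2 labelled hep-/- held the highest value for 74 of the 161 members. Summed CPM of the members was 2330 to 2574 in flox/flox mice and 2972 to 3565 in mice labelled hep-/-. The nuclear RNA *Malat1* was at 445, 188, 131 and 228 CPM in flox/flox replicates 1 to 4 and at 195, 448 and 540 CPM in replicates 1 to 3 labelled hep-/-. *Neat1*, another nuclear RNA, was at 1702, 528, 247 and 1192 CPM and at 1245, 2234 and 1162 CPM. In flox/flox mice both followed the order of the called members' deviations, while in mice labelled hep-/- neither did, and the groups overlapped for both. Over all 161 members flox/flox replicate 4 was highest of its group (0.062, against 0.055 in replicate 1), an order that neither RNA followed. *Kcnq1ot1*, the remaining nuclear RNA of the list, rose from a mean of 1.88 CPM to 5.95 CPM without overlap (log2 fold change 1.66 ± 0.49, edgeR adjusted p = 0.0424). The parts of these RNAs, of the mitochondrial share and of library size in the result were not tested.

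**Figure D4:**
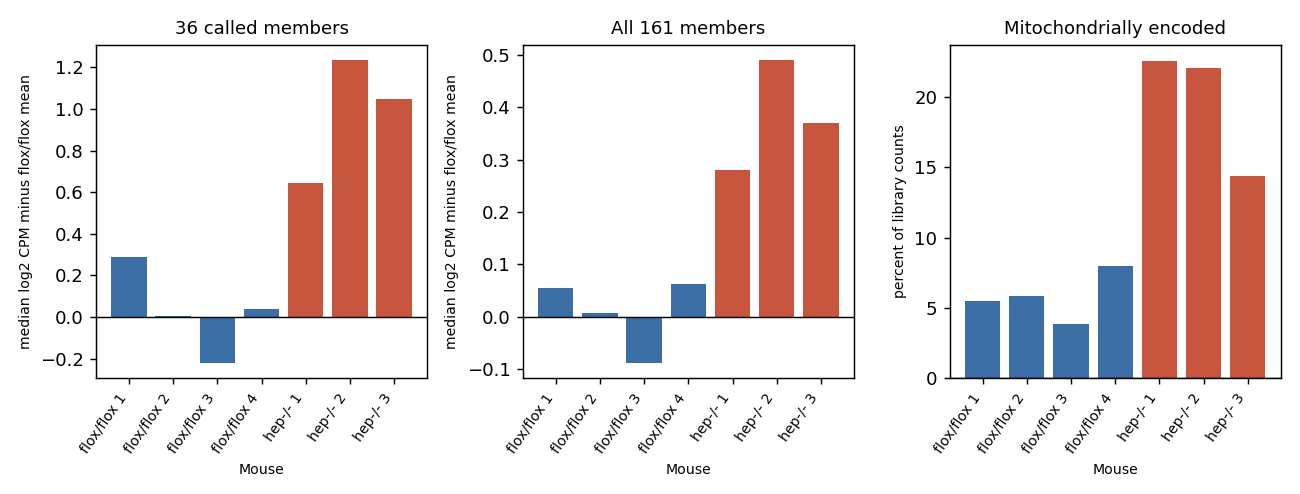
Median log2 CPM of the 36 called members (left) and all 161 members (middle) relative to the flox/flox mean, and the percent of counts from mitochondrially encoded genes (right), 1 bar per mouse. All 3 bars labelled hep-/- are above all 4 flox/flox bars in each panel.

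Related families were compared by their counts of calls. Of 158 tested *Zfp* genes under the threshold, 13 (8.23%) were called higher and 2 lower, and their median was 0.34, as in the members. *Zfp* genes whose symbol ends in a letter had 1 of 25 called in each direction and a median of 0.09. *Zbtb* genes, whose proteins join zinc fingers to a BTB domain, had 7 of 39 called higher and 0 lower, with a median of 0.33. *Zscan* and *Zkscan* genes had 3 of 19 called higher and 0 lower, with a median of 0.31, while *Klf* genes had 1 of 14 called in each direction and a median of 0.04. Of 26 genes for the KRAB corepressor machinery, *Setdb1*, *Ehmt1* and *Tasor* were called higher and *Cbx3* and *Rbbp7* lower, with a median of 0.12. These are 11.5% and 7.69% of the list, near the shares of 8.00% and 7.83% over all genes. *Trim28* was at a mean of 55.2 CPM in flox/flox mice and 60.0 CPM in mice labelled hep-/- (log2 fold change 0.12, edgeR adjusted p = 0.671). Of 12 RNA polymerase II subunits, 1 was called higher and 2 lower.

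**Figure D5:**
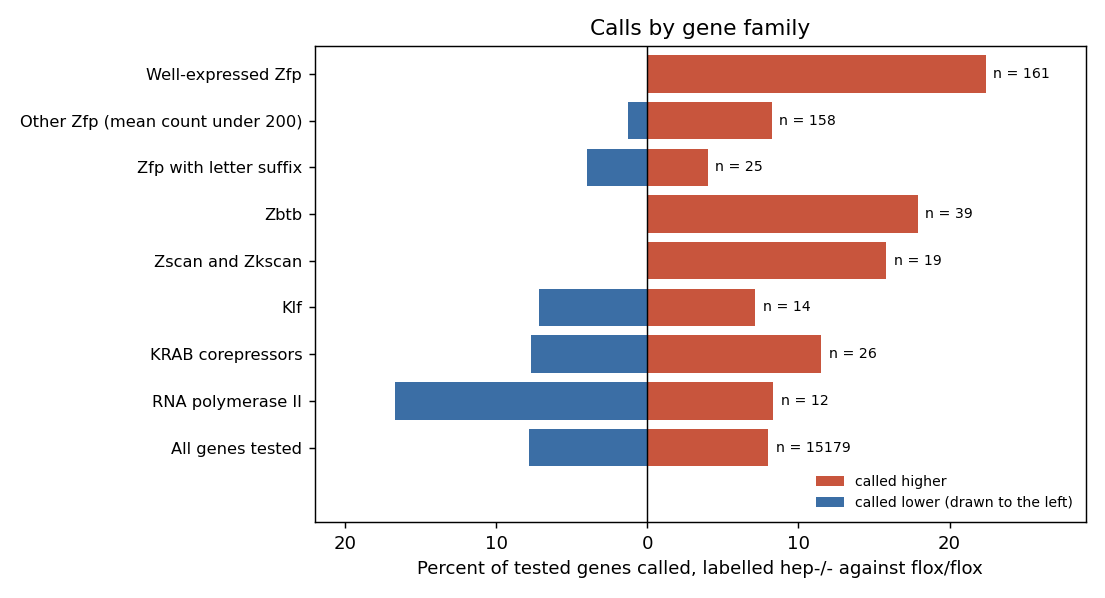
Percent of the tested genes of each family called higher (right) or lower (left) in mice labelled hep-/-, with the number tested. The well-expressed *Zfp* genes had 22.4% called higher and 0 lower, and all genes tested had 8.00% and 7.83%.

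The livers were also checked for other cell types. None of 6 hepatocyte markers was called, while 3 of 6 macrophage markers, *Vsig4*, *Adgre1* and *Cd68*, and 1 of 6 endothelial markers, *Kdr*, were called lower. Over all genes tested 8.00% were called higher and 7.83% lower, and with lists this short 0 or 1 call says little. The median log2 fold change was 0.36 for hepatocyte, 0.31 for lymphocyte and 0.28 for cholangiocyte markers, with 5 of 6, 6 of 6 and 4 of 5 above 0. It was -0.13 for stellate, -0.41 for endothelial and -0.96 for macrophage markers. The summed level of hepatocyte markers was 74702 to 112926 CPM in flox/flox mice and 92338 to 143446 CPM in mice labelled hep-/-, so the groups overlapped. Summed macrophage markers were at 315 to 555 CPM in flox/flox mice and 199 to 219 CPM in mice labelled hep-/-. Summed endothelial markers were at 72.1 to 291 CPM and 104 to 121 CPM, and summed lymphocyte markers at 48.7 to 76.2 CPM and 64.2 to 110 CPM. No stellate, cholangiocyte or lymphocyte marker was called, and no marker was at 0 in all mice. In whole liver, fewer cells of a type and less RNA per cell cannot be told apart, and the part of these markers in the result was not tested.

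Values just inside and outside the threshold were alike in level. *Zfp971* and *Zfp626* averaged 201 and 203 raw counts over the 7 libraries and were the lowest members, and *Zfp747* and *Zfp282* averaged 195 and 198 and were the highest *Zfp* genes left out. The mean raw count was at least 200 in both groups for 148 members, only in mice labelled hep-/- for 5 and only in flox/flox mice for 8. Of the 36 called members, 35 reached it in both groups.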

How the data were processed

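Liver RNA-seq from 7 mice (4 *B4galt1* flox/flox, 3 labelled *B4galt1* hep-/-) was analysed, with groups and replicate numbers taken from the sample labels. The authors deposited counts per gene, whole numbers without normalization, and FPKM, which the authors made from the same counts. The submitters' processing notes name fastp, HISAT2, HTSeq, DESeq2, R 3.2.0 and GRCm39. According to the supplementary methods DESeq2 served to call genes and R for enrichment, and the roles of the others are not given in the sources used here. Sequence features came from GENCODE and RefSeq on GRCm38, so no coordinates were joined to the counts.

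Counts were filtered by filterByExpr (minimum count 10, total 15), scaled by TMM and compared by the quasi-likelihood test of edgeR 4.0.16 in R 4.3.3, Benjamini-Hochberg adjusted over all 15179 genes. CPM values are TMM-normalized, SE was derived from the F statistic, and 3 counts equal 0.0690 to 0.0987 CPM. Each mouse gave 1 library, so p-values reflect the spread between these mice.

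Finger (C-x2-4-C-x12-H-x3-5-H) and KRAB-A patterns were searched in translated GENCODE reading frames, found for all 161 members. Shared sequence was found with BLAST 2.17.0 (95% identity, 200 bases).

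On simulated counts with 200 genes changed by a log2 fold change of 2, edgeR recovered 96%, with 7 false calls among 199 over 15116 genes. The simulation gave every gene the same dispersion, and its changes were larger than that of any member. Recovery of changes of the size reported here was therefore not tested.

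The members and gene lists were chosen with earlier results of these data known. Named genes were the 10 largest called increases and decreases, the 5 with the highest mean CPM, the 2 *Zfp* genes on each side of the threshold, and *Zfp36*, *Zfp143*, *Zfp148*, *Zfp281* and *Zfp638*; others named were chosen after their values were seen. Alternatives were RLE, upper-quartile and total-count scaling, leaving out 13 mitochondrially encoded genes, DESeq2 1.42.0, voom, limma 3.58.1 on log2 FPKM, other filters and thresholds, a replicate block and each mouse left out. Fold changes from FPKM are on the log2(FPKM + pseudocount) scale, which compresses those of genes with low values.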

Additional observations from a re-analysis of the deposited data

How the results depend on the processing

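The member median was positive under every alternative run, and the number called higher was within 1.5 times of 36 under RLE, upper-quartile, DESeq2, voom, both count filters, no fold threshold, leaving out mitochondrially encoded genes and a member threshold by balanced CPM. It was 15 with total counts alone (median 0.23), 15 with limma on log2(FPKM + 1) (median 0.16) and 16, with 1 called lower, on log2(FPKM + 0.1) (median 0.22), where the medians of all genes were -0.10, -0.14 and -0.18. The FPKM fits tested 147 of the 161 members, and the cause of the lower counts was not tested. A threshold of 500 raw counts gave 22 of 73 members (median 0.43) and one of 100 gave 43 higher and 2 lower among 221 (median 0.34). Leaving out 1 mouse gave 12 to 36 called higher, 0 called lower and medians of 0.31 to 0.38, while 2.74% to 8.66% of all genes were called higher, and these fits also had fewer samples. Correcting log2 fold changes for GC content and transcript length, chosen after seeing the data, gave a median of 0.35, with -0.03 over all genes.

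With the replicate number as a block, 15 members (9.32%) were called higher, 14 of them among the 36, against 4.22% of all genes. Deviations of same-numbered mice correlated at -0.34, -0.03 and 0.08, and 3 such values cannot show whether the numbers pair the mice.

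Among the 21 members named by rule, the sign turned in 3, none of them called: *Zfp626* (0.014 with upper-quartile scaling, 0.050 with the block, -0.074 to 0.051 without 1 mouse), *Zfp281* (-0.060 with total counts, -0.046 on log2(FPKM + 1), -0.052 on log2(FPKM + 0.1), -0.054 to 0.23 without 1 mouse) and *Zfp207* (-0.11 to 0.067 without 1 mouse). Standard errors of these named members ran from 0.18 (*Zfp207*) to 0.46 (*Zfp579*), so a member that was not called is not shown to be unchanged.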
